A study of Mus musculus with 4 samples.

Results

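The genes described here encode the proteins of the mitochondrial ribosome, the particle that translates the few messages made from mitochondrial DNA. They were taken by symbol: every gene named Mrpl or Mrps followed by a digit that has at least 1 transcript annotated as protein coding. The rule gave 78 of the 55536 annotated genes, of which 49 carry the large-subunit prefix (Mrpl) and 29 the small-subunit prefix (Mrps). RNA came from the cytosolic fraction of macrophages grown from the bone marrow of C57BL/6J mice and exposed to Lipid A, a bacterial product sensed by Toll-like receptor 4, at 100 ng/ml for 15 min. Ribosomal RNA had been depleted. The 4 libraries are biological replicates 1 to 4 of this one condition, made from 1 µg of RNA each, with 1 donor record, no stated genetic change, and sex and age recorded as not collected. Whether each replicate was its own animal or culture is not labelled. Every p-value for a fold between replicates is thus relative to a spread between libraries that could be purely technical. Those of the Poisson deviance test below are relative to counting error instead. Unstimulated cells and nuclear RNA were not analysed here, so no value below is a response to Lipid A.

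Mammalian mitochondrial ribosomes are built from 2 RNAs encoded in mitochondrial DNA and from proteins that are all encoded in the nucleus, translated in the cytosol and imported. They make hydrophobic core subunits of the respiratory chain complexes and of ATP synthase, so the chain needs both genomes. Some of the proteins descend from bacterial ribosomal proteins, while others have no bacterial counterpart and were added during mitochondrial evolution. Symbols do not follow structure throughout: the products of Mrps18a and Mrps30 sit in the large subunit, and the product of Mrps36 is known mainly as a component of the 2-oxoglutarate dehydrogenase complex.

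Library totals ran from 30088678 expected counts in replicate 1 to 47961117 in replicate 2. The lowest count of any of the 78 genes in any library was 153, for which counting alone gives a coefficient of variation of 8.08%. The signal recognition particle RNA 7SL took 57.1% to 63.3% of all TPM (the deposited abundance, corrected for length and scaled to a fixed sum per library), so a TPM also moves with the other RNAs of its library. All 10 macrophage markers averaged at least 1 TPM (5991 to 9519 TPM summed), against 0 of 4 markers each for T cells, B cells, erythroid cells and stromal cells and 2 of 4 for neutrophils (18.8 to 34.6 TPM summed). Replicate 1 stood apart: 14.5% of the 14041 genes tested were called higher and 7.58% lower than in the other 3 libraries, whereas 0 genes were called by edgeR's quasi-likelihood test when replicate 2, 3 or 4 was set against the rest. For replicates 2, 3 and 4, replicate 1 was among the rest, and the median SE of a member's log2 fold was 0.27, 0.23 and 0.25. It was 0.12 with replicate 1 as the lone library, so the lack of calls in those comparisons says little. The summed level of 8 proliferation markers was 178 TPM in replicate 1 and 30.9 to 50.3 TPM in the others, with none of the 8 at 0.

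All 78 genes were detected in every library at 1 TPM or more. The same level was reached on average by 9630 of the 21901 genes with a protein-coding transcript (44%). The median of the 78 genes was 13.4, 8.43, 8.04 and 12.1 TPM in replicates 1 to 4 (10.5 ± 2.68, SD, n = 4). Replicates 1 and 4 were high and replicates 2 and 3 low. The median of all genes tested, at 5.05, 3.41, 3.45 and 5.2 TPM, was likewise higher in replicates 1 and 4. Set against that median within each library, the 78 genes stood 2.66, 2.47, 2.33 and 2.33 times as high. Together they held 0.162%, 0.123%, 0.111% and 0.126% of the counts.

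Mitochondrial ribosomal protein RNA was less abundant per gene than that of the cytosolic ribosome or the respiratory chain. The 84 cytosolic ribosomal protein genes had a median of 252 ± 66.5 TPM and 83 nuclear genes of the respiratory chain and ATP synthase one of 43.7 ± 9.47 TPM (SD, n = 4 libraries each). The highest library median of the 78 genes, 13.4 TPM, was below the lowest of either group, 176 and 33.1 TPM.

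**Figure D1:**
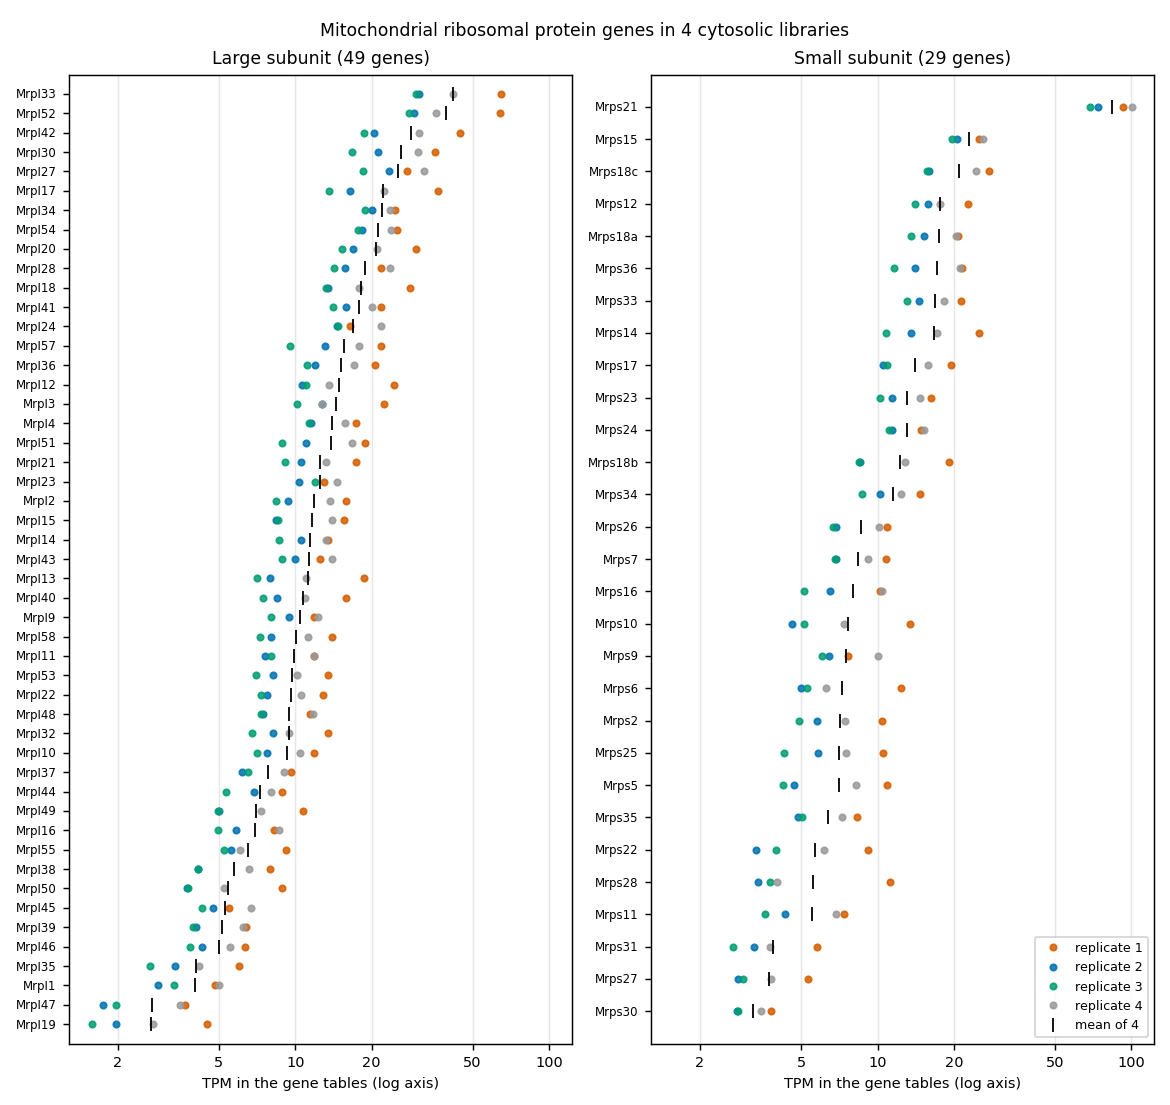
TPM of each of the 49 large-subunit and 29 small-subunit genes (rows, ordered by mean) in each of 4 libraries (points) with the mean of 4 (bar), on a log axis. The means in the gene tables run from 2.7 TPM (Mrpl19) to 83.7 TPM (Mrps21). The lowest library is replicate 3 for 60 genes and replicate 2 for 18, and the same was not counted over all genes tested.

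Mrps21, a small-subunit protein related to bacterial S21, had the highest level, with 92.5, 73.7, 68.5 and 100.2 TPM in replicates 1 to 4 (83.7 ± 15.1, SD, n = 4). Its lowest library exceeded the highest value of any other member, 64.5 TPM for Mrpl33 in replicate 1. Among large-subunit genes the top 3 were Mrpl33, related to bacterial L33, at 64.5, 30.6, 29.9 and 41.8 TPM, the mitochondria-specific Mrpl52 at 63.9, 29.3, 28 and 35.7 TPM, and the mitochondria-specific Mrpl42 at 44.5, 20.4, 18.6 and 30.6 TPM. All of these had replicate 1 as their highest library, and the ranges of Mrpl33 and Mrpl52 overlapped almost completely. Behind Mrps21 in the small subunit came Mrps15 (22.9 TPM on average) and Mrps18c (20.9 TPM), close to each other within the spread of either.

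At the low end were Mrpl19 with 4.5, 1.97, 1.58 and 2.76 TPM, Mrpl47 with 3.68, 1.75, 1.97 and 3.52 TPM, and Mrps30 with 3.81, 2.79, 2.81 and 3.47 TPM. Mrpl19 was low per length rather than in reads, with 807, 882, 577 and 839 counts. It has the longest RNA of the set in the gene tables (4701 bases) and Mrps30 the longest of the small subunit (3325 bases). The rank of Mrpl19 depends on the quantification. In the target tables, a second quantification of the reads, Mrpl19 averaged 1.96 TPM, above Mrpl47 (1.24 TPM) and Mrps30 (1.17 TPM).

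**Figure D2:**
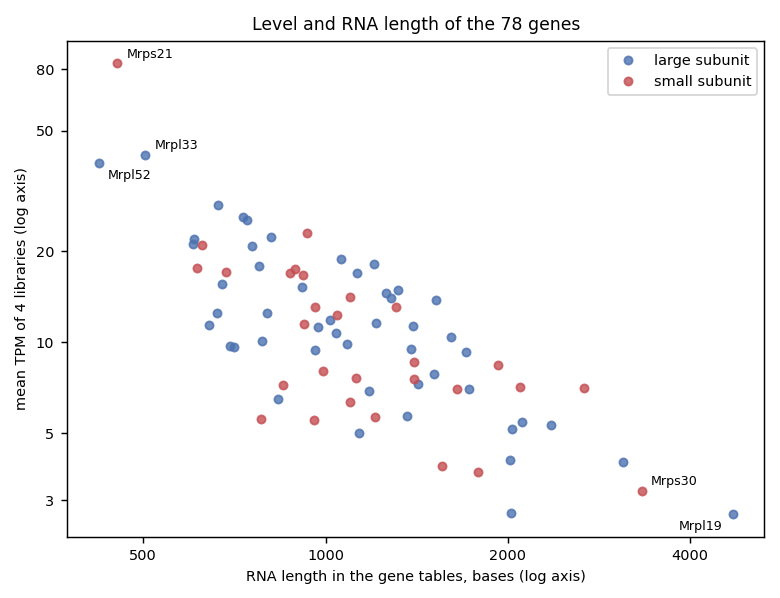
Mean TPM of 4 libraries (log axis) against the RNA length of each gene in the gene tables (log axis) for the 78 genes, coloured by subunit. Short RNAs such as those of Mrps21 and Mrpl52 have the highest TPM, and the longest, Mrpl19 and Mrps30, are among the lowest.

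Level per length fell with RNA length across the 78 genes, whose median length was 1074 bases (422 to 4701). The Spearman rank correlation between length and mean TPM was -0.71 (large -0.72, small -0.65), while that between length and log2 CPM (counts scaled to library size, not divided by length) was 0.25. These are descriptions over 78 genes measured in the same libraries, and length is itself a divisor in TPM.

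Large-subunit genes had the slightly higher median level. Their median was 14, 9.4, 8.38 and 12.8 TPM in replicates 1 to 4 (11.2 ± 2.69, SD, n = 4), against 12.4, 6.86, 6.69 and 10.1 TPM for small-subunit genes (9 ± 2.74). The large-subunit median was the higher in 4 of 4 libraries. As a difference of median log2(TPM + 1) within each library it was 0.16, 0.40, 0.29 and 0.32 (0.29 ± 0.10, SD, n = 4). The single genes of the subunits overlapped over nearly their whole range, 2.7 to 41.7 TPM in the large and 3.22 to 83.7 TPM in the small subunit. The size depended on the scale: it was 0.14 with means of log2(TPM + 1) in place of medians and 0.12 on log2(CPM + 1), without length correction. Placing Mrps18a and Mrps30 with the large subunit left it at 0.29. On unlogged TPM the order was not constant. The summed TPM was 889, 527, 481 and 715 for the 49 large-subunit genes and 489.7, 313, 289 and 428 for the 29 small-subunit genes. Per gene, this sum was higher for the large subunit only in replicate 1.

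By descent, the 46 genes with a bacterial homolog had a median of 11.7 ± 3.03 TPM. The 32 genes counted as mitochondria-specific had one of 9.35 ± 2.28 TPM (SD, n = 4 each). These 32 included Mrps18a and Mrps18b, although both are paralogs of bacterial S18. The homologs had the higher median in every library (15.2, 9.88, 8.6 and 13.2 TPM, against 11.9, 7.75, 7.14 and 10.5 TPM). This also held within the large subunit (16.1, 10.4, 8.88 and 13.4 TPM, against 12.5, 8.02, 7.28 and 10.9 TPM). Within the small subunit it did not: the homologs had 12.9, 6.68, 6.41 and 10.2 TPM, against 10.9, 6.86, 6.69 and 10.1 TPM. There the order was reversed in replicates 2 and 3. No test was made over the genes.

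Several members with known roles can be placed on this scale. Mrps12, related to the bacterial decoding-centre protein S12, averaged 17.6 TPM. The L7/L12 stalk genes Mrpl12 and Mrpl10 averaged 14.9 ± 6.5 and 9.27 TPM. Mrpl45, which lies at the exit tunnel near the inner membrane, had 5.5, 4.75, 4.3 and 6.67 TPM and was below the list median in every library. Mrpl58, a peptidyl-tRNA hydrolase also called Ict1, averaged 10.1 TPM, and Mrps36 averaged 17.1 TPM. The 3 paralogs of bacterial S18 all gave RNA, with Mrps18c at 27.6, 16, 15.6 and 24.5 TPM, Mrps18a at 20.7, 15.2, 13.6 and 20.4 TPM, and Mrps18b at 19.2, 8.51, 8.48 and 12.8 TPM. Mrps18c was the highest of the 3 in every library and Mrps18b the lowest.

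In replicate 1 the RNA of many mitochondrial ribosomal proteins made up a larger share of the library than in the other 3. After scaling by library size and TMM, 25 of the 78 genes (32.1%) were called higher in replicate 1 at an adjusted p below 0.05, where 14.5% of all genes tested were, and 0 were called lower, where 7.58% of all genes were. The p-values are those of edgeR's quasi-likelihood test, adjusted by Benjamini-Hochberg over 14041 genes, and the lone library is taken to vary like the other 3. A fold above 0 was found for 67 genes and below 0 for 11. The median log2 fold was 0.34, with a range of -0.25 to 1.27, and that of all genes tested was 0.00 to 2 decimals. The proliferation markers moved with this difference, with 7 of 8 called higher in replicate 1, and their part in it was not tested. The nuclear RNA Malat1 had 306 TPM in replicate 1 and 242, 984 and 941 TPM in the others (log2 fold -1.62 ± 0.90, SE; adjusted p = 0.263, edgeR), inside their range in TPM, and its part was not tested either. In bulk RNA a different make-up of cells and a different amount of RNA per cell cannot be told apart.

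Mrps28, a small-subunit protein with a bacterial-type S1 domain, stood out most. It had 295 counts in replicate 1 and 180, 165 and 153 counts in replicates 2 to 4, although replicate 1 was the smallest library. As TPM these were 11.2 in replicate 1 and 3.39, 3.77 and 4.02 in the others, and no other library came near replicate 1. The log2 fold was 1.27 ± 0.22 (SE; adjusted p = 0.0189, edgeR). Mrps28 overlaps the annotated gene Gm15467 on the opposite strand, and the strand setting of the counts was not stated.

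Mrps6, related to bacterial S6, had 12.4 TPM in replicate 1 and 5, 5.28 and 6.28 TPM in the others, with a log2 fold of 0.87 ± 0.16 (SE; adjusted p = 0.0222, edgeR). Mrpl50, a mitochondria-specific large-subunit protein, had 8.9 TPM in replicate 1 and 3.76, 3.78 and 5.26 TPM in the others. Its log2 fold was 0.82 ± 0.09 (SE; adjusted p = 0.007, edgeR). In each gene replicate 1 was the highest library in TPM, as it was for 63 of the members. How many of all genes tested share this was not counted, so it cannot be read as particular to these genes. Mrpl13, Mrpl17 and Mrpl12 followed in the large subunit with log2 folds of 0.80, 0.80 and 0.79, and Mrps22, Mrps10 and Mrps18b in the small subunit with 0.78, 0.78 and 0.71. Mrpl12, the stalk protein, had 24.5 TPM in replicate 1 and 10.6, 11 and 13.6 TPM in the others.

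The other called genes of the large subunit were Mrpl18, Mrpl49, Mrpl52, Mrpl42, Mrpl3, Mrpl51, Mrpl19, Mrpl33, Mrpl40, Mrpl38, Mrpl15 and Mrpl36, with log2 folds of 0.37 (Mrpl36) to 0.67 (Mrpl18). In the small subunit they were Mrps5, Mrps14, Mrps2 and Mrps17, with 0.34 (Mrps17) to 0.60 (Mrps5). The calls were not equally firm: 13 of the 25 held under each of the 7 alternatives tried, among them Mrps28, Mrps6, Mrpl50, Mrpl17, Mrpl13 and Mrpl12. The call of Mrps17 was lost in all 7, and those of Mrpl36 and Mrpl38 in 6 of 7. Leaving out replicate 3 or replicate 4 lost 10 calls each, and DESeq2 called 17 of the 78 higher, where it called 13.4% of all genes higher.

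**Figure D3:**
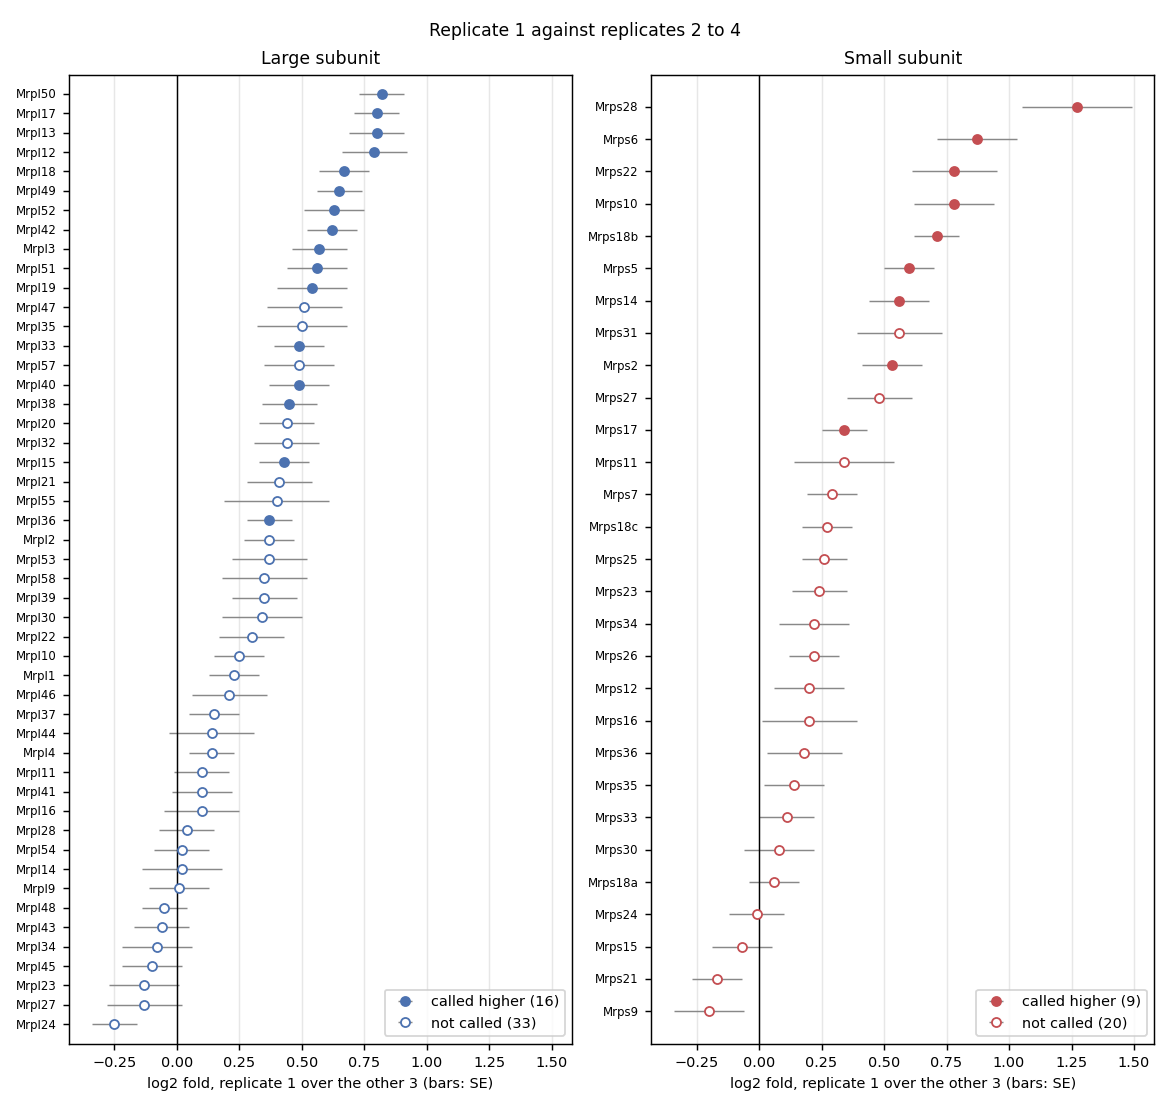
Log2 fold of replicate 1 over replicates 2 to 4 for each gene, with its SE, large subunit left and small subunit right. Filled points are the 16 and 9 genes called higher by edgeR at an adjusted p below 0.05, and open points are not called, including all 11 genes with a fold below 0.

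The shares called were close between the subunits. In the large subunit 16 of 49 genes (32.7%) were called higher and the median log2 fold was 0.37, and in the small subunit 9 of 29 (31%) were and the median was 0.26. The difference of the medians, 0.11, was about as large as the typical SE of a single gene's fold, 0.12. Of the genes with a bacterial homolog 16 of 46 were called, and of the mitochondria-specific genes 9 of 32. Within the small subunit the split was 7 of 16 against 2 of 13, and within the large subunit 9 of 30 against 7 of 19. Mrps18b, a paralog of bacterial S18, was among the called genes counted as mitochondria-specific. Whether these shares differ was not tested.

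Several of the more abundant members were not called. Mrps21 had a log2 fold of -0.17 ± 0.10 (SE; adjusted p = 0.292, edgeR), and Mrpl27, Mrpl34 and Mrps15 had -0.13, -0.08 and -0.07. The lowest fold belonged to Mrpl24, -0.25 ± 0.09 (SE; adjusted p = 0.127, edgeR), which had 16.5 TPM in replicate 1 and 14.6, 14.7 and 21.7 TPM in the others. In TPM replicate 1 lay inside the range of the others, and in log2 CPM, at 4.51 against 4.75, 4.73 and 4.79, below it. The S18 paralogs differed in their calls: Mrps18b was called higher (adjusted p = 0.0082, edgeR), while Mrps18c had 0.27 ± 0.10 and Mrps18a 0.06 ± 0.10 (SE; adjusted p = 0.119 and 0.702, edgeR).

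No member was called when replicate 2, 3 or 4 was compared with the other libraries (0 of 78 each, where 0% of all genes were). At an unadjusted p below 0.05, 0 of the 78 genes passed in any of these comparisons, against 277, 135 and 104 of all genes tested. DESeq2 also called 0 members, and 8, 3 and 17 of all genes (0.057%, 0.0214% and 0.121%). The median log2 folds of the 78 genes were -0.02, -0.17 and -0.15. These comparisons share libraries with the one of replicate 1, which is in the set of 3 each time. The SEs were larger there, so the lack of calls says little.

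The rest of the mitochondrial translation apparatus was examined by lists. Of 5 mitoribosomal proteins without the symbol, all had a fold above 0 in replicate 1 and 2 were called higher (median log2 fold 0.29), where 14.5% of all genes were called higher. Ptcd3, a pentatricopeptide repeat protein of the small subunit, had 9.19 TPM in replicate 1 and 3.8, 3.69 and 5.42 TPM in the others, a log2 fold of 1.01 ± 0.10 (SE; adjusted p = 0.0052, edgeR). Chchd1, also of the small subunit, had a log2 fold of 0.51 ± 0.13 (SE; adjusted p = 0.0461, edgeR), a call lost in 4 of the 7 alternatives, with adjusted p up to 0.124 under DESeq2. The small-subunit proteins Dap3 and Aurkaip1 had 0.22 and 0.12, and Gadd45gip1 of the large subunit 0.29, none of them called.

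Of 10 mitochondrial translation factors found, 3 were called higher and 0 lower (median 0.12), where 14.5% of all genes were called higher. These were the elongation factors Tufm (0.48 ± 0.10), Tsfm (0.78 ± 0.17) and Gfm1 (0.68 ± 0.14, SE), while the initiation factors Mtif2 and Mtif3 had -0.02 and 0.06. Tufm lost its call without replicate 3 or 4 (adjusted p = 0.0697 and 0.0821, edgeR) and Tsfm without replicate 2 or 4 (0.0508 and 0.0643). Of 22 assembly factors, 4 were called higher and 0 lower (median 0.23), near the 14.5% of all genes called higher. They were C1qbp, a matrix protein, with 54.4 TPM in replicate 1 and 22.1, 19.3 and 27.4 TPM in the others, the ribosomal RNA methyltransferase Mrm3 (1.18 ± 0.26), and the GTPases Noa1 (0.68 ± 0.11) and Gtpbp10 (0.58 ± 0.12, SE). Mrm3 lost its call without replicate 3 or 4 (adjusted p = 0.0742 and 0.0681, edgeR), and Gtpbp10 without replicate 2 or 4 (0.0558 and 0.0688) and under DESeq2 (0.0887).

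In the comparison groups, 1 of 81 cytosolic ribosomal protein genes tested was called higher and 0 lower, with a median log2 fold of -0.02. Of the respiratory chain genes, 7 of 77 were called higher and 2 lower, with a median of 0.12. Over all genes tested, 14.5% were called higher and 7.58% lower, so both groups lay below these shares. Whether either group differs from the mitochondrial ribosomal proteins was not tested. The RNAs of the mitochondrial ribosome itself varied more between libraries than any of the 78 protein genes, with a median SD of log2 CPM of 1.345, against at most 0.664. mt-Rnr1, the small-subunit rRNA, had 735, 276, 454 and 2577 counts in replicates 1 to 4, and mt-Rnr2, the large-subunit rRNA, had 887, 297, 527 and 2763. Replicate 4 was the highest and replicate 2 the lowest for both, unlike the protein genes. These libraries were depleted of ribosomal RNA, and the part of that step in the spread was not tested.

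The spread of the 78 genes between libraries was close to that of genes of like level. The SD of log2 CPM over the 4 libraries had a median of 0.192 over the 78 genes (0.042 to 0.664), of 0.209 over the large and 0.162 over the small subunit. It was 0.255 over all genes tested and 0.203 over the 4760 genes within the members' range of levels, a comparison added after seeing the data. Without replicate 1 the medians were 0.104 for the 78 genes, 0.101 for the large subunit, 0.110 for the small subunit, 0.131 for all genes tested and 0.109 for the genes of like level.

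Mrps28 (0.664), Mrps6 (0.450), Mrps22 (0.423), Mrps10 (0.419) and Mrpl12 (0.413) had the largest SD. The smallest belonged to Mrpl48 (0.042), Mrpl54 (0.064), Mrps24 (0.065), Mrps18a (0.066) and Mrpl11 (0.071). Mrpl48 had 571, 880, 678 and 892 counts, which followed the library totals so closely that its log2 CPM was 4.16, 4.26, 4.18 and 4.22. Replicate 1 was the highest of the 4 libraries in log2 CPM for 58 of the 78 genes, and replicates 3 and 4 were the lowest for 33 and 34. The same was not counted over all genes tested, so these counts cannot be read as particular to the 78.

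**Figure D4:**
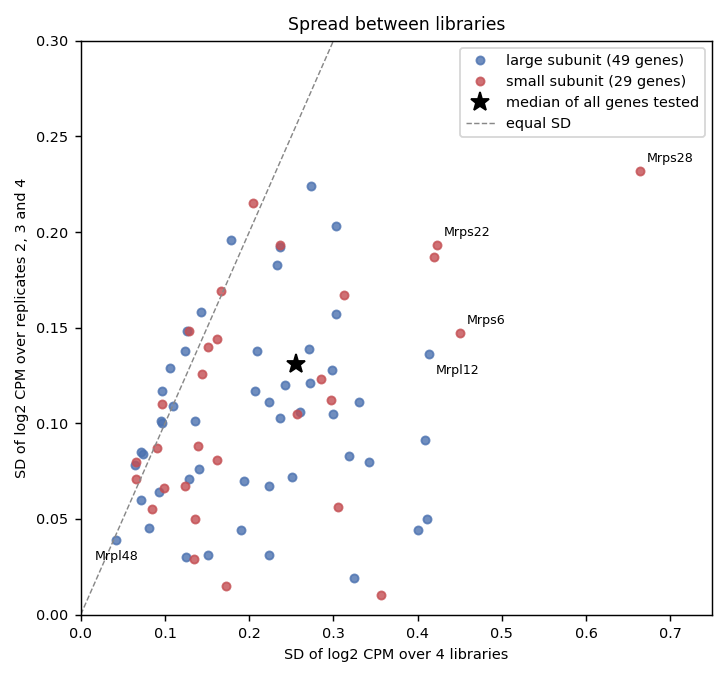
SD of log2 CPM over replicates 2, 3 and 4 (vertical) against the SD over all 4 libraries (horizontal) for the 78 genes, coloured by subunit, with the median of all genes tested as a star. Most points lie right of the line of equal SD, and Mrps28, at 0.664 with replicate 1 and 0.232 without it, lies farthest out.

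The share of members that varied beyond counting was near that of all genes. In a Poisson deviance test over the 4 scaled libraries, 66 of the 78 genes (84.6%) passed at an adjusted p below 0.05, where 82.8% of all genes tested did, so the share is not particular to them. This held for 40 of 49 large-subunit and 26 of 29 small-subunit genes. Without replicate 1 it held for 41 of 78 (52.6%), where 60.1% of all genes did. Mrpl48 was among the 12 that did not (adjusted p = 0.621, Poisson deviance test across all genes).

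Most RNA of the 78 genes was assigned to transcripts that encode protein. Transcripts annotated as protein coding held 86.7 ± 0.704% of the summed TPM (SD, n = 4), those annotated as targets of nonsense-mediated decay 4.84 ± 0.839%, those with a retained intron 4.41 ± 0.59% and other processed transcripts 4.09 ± 0.105%. The retained-intron share was 4.06%, 3.89%, 4.48% and 5.22% in replicates 1 to 4. Malat1, a nuclear RNA, had 306, 242, 984 and 941 TPM and was likewise higher in replicates 3 and 4, and the part of nuclear RNA in this share was not tested. The target tables, quantified from the reads by another route, gave 83.8 ± 0.469% for protein-coding transcripts.

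For 12 of the 78 genes the leading transcript was not annotated as protein coding. Mrpl57, a mitochondria-specific large-subunit gene, had 92.7%, 94.4%, 92.1% and 94.3% of its TPM in a retained-intron transcript in replicates 1 to 4. Mrps26 had 89.3 ± 1.69% in one of that class, and Mrps16 89.2 ± 0.965% in a processed transcript (SD, n = 4). In these genes the 4 libraries differed by only a few percentage points.

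Mrps14 had 85.2 ± 2.15% and Mrpl32 77.2 ± 6.07% in a transcript annotated for nonsense-mediated decay (SD, n = 4). Of Mrpl3, called higher in replicate 1, 87.9%, 81.9%, 79.4% and 79.2% of the TPM in replicates 1 to 4 lay in transcripts not annotated as protein coding, so its highest share was in replicate 1. The remaining genes were Mrpl13, Mrpl15, Mrpl35, Mrpl51, Mrps25 and Mrps35. All but Mrpl13 had the same leading transcript in the target tables, and of the 75 genes with several transcripts 67 did. The leading class also differed between tables for Mrpl47 and Mrpl19, protein coding in the gene-alignment tables and a processed transcript in the target tables. Mrpl19 had 6.55 ± 10.9% of its TPM outside protein-coding transcripts in the gene-alignment tables (SD, n = 4) and 57% in the target tables. Its isoform shares are therefore uncertain, and so is its level. Other genes also differed between the tables in this share, among them Mrps24 (8.65% and 34.5%), Mrps7 (2.44% and 26.2%) and Mrpl2 (1.83% and 17.1%). Mrps12 differed in the other direction (32.3% and 17.9%). A share between isoforms rests on how reads common to them were assigned, and the files give no error for it.

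**Figure D5:**
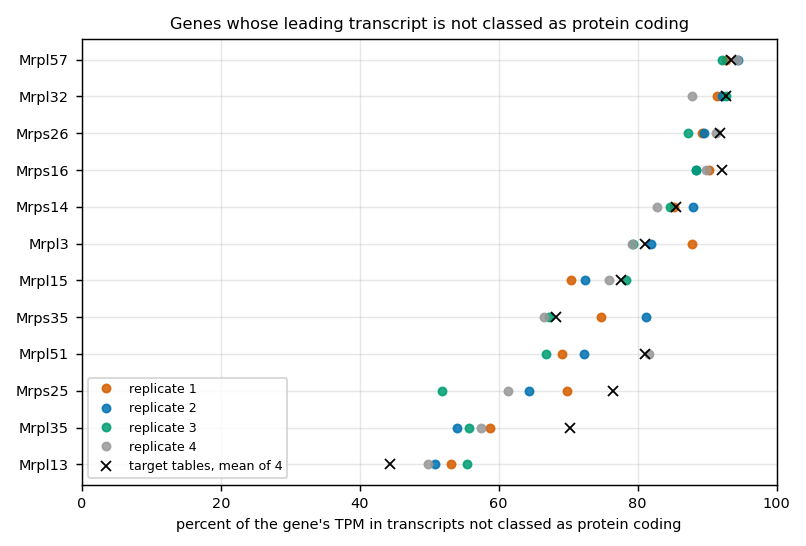
Percent of a gene's TPM in transcripts not annotated as protein coding, for the 12 genes whose leading transcript is of another class, in each of 4 libraries (points) and as the mean of the target tables (cross). Mrpl57 lies above 90% in all libraries, and Mrpl13, near 50%, is the gene among these 12 whose leading class differs between tables.

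The tables ranked the members alike, with a Spearman rank correlation of 0.96 between mean TPM in the gene tables and in the target tables over 78 genes, and a median ratio of target to gene table of 0.39 (0.389 over all genes tested). Mrpl23 departed from this with a ratio of 0.103, against 0.329 to 0.726 for the other members. Mrpl23 had 13, 10.3, 12 and 14.6 TPM in replicates 1 to 4, against 20.1, 12.3, 8.01 and 17.7 TPM for its processed pseudogene Mrpl23-ps1, which is outside the rule. Reads can be split between a gene and such a copy, so the level of Mrpl23 is uncertain. Of the 4 other pseudogenes with such a symbol, none exceeded 2 counts in a library.

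The genes were spread over the genome (GRCm38, mm10 in the submitters' text) and often started beside another gene. Chromosome 11 held 11 of the 78 (14.1%, against 7.49% of coding genes) and chromosome 17 held 8. For 33 of the 78 genes (42.3%) a protein-coding gene started within 1000 bases on the opposite strand, against 2032 of 11725 coding genes tested (17.3%). Examples are Mrps12 beside Sars2, the mitochondrial seryl-tRNA synthetase, Mrpl43 beside Twnk, the mitochondrial DNA helicase, and Mrpl36 and Mrpl47 beside the complex I genes Ndufs6 and Ndufb5. Mrps11 and Mrpl46 are neighbours of this kind and join the subunits. In GENCODE M21 their starts lie 412 bases apart on chromosome 7 and their 5′ ends overlap. RefSeq, used for the promoter windows, puts the start of Mrps11 close to that in GENCODE and the start of Mrpl46 farther from it. The distance and the overlap given here are therefore those of GENCODE M21 alone. In replicate 1 their log2 folds were 0.34 ± 0.20 for Mrps11 and 0.21 ± 0.15 for Mrpl46 (SE), neither called. An overlap with a gene on the opposite strand was annotated for 36 of the 78 genes, and without a stated strand setting reads there cannot be told apart.

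RefSeq promoter windows (GRCm38.p6, 250 bases before to 50 after the start) were available for 69 of the 78 genes. Windows of 3 members are shown as examples of matches to motifs of factors known from mitochondrial gene regulation, which 28 of the 69 windows lacked. Mrps21 is the most abundant member with an NRF1 match and Mrpl42 that with a YY1 match, and the last covers the RefSeq starts of both Mrps11 and Mrpl46. Capitals mark matches to the motifs named next.
Mrps21, chr3:95871465-95871764, minus strand: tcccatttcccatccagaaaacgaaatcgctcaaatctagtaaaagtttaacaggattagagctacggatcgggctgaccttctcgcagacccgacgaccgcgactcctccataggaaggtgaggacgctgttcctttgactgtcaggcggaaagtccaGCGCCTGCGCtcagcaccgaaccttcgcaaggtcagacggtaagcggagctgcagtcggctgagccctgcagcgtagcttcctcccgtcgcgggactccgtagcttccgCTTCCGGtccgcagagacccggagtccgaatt
Mrpl42, chr10:95501900-95502199, minus strand: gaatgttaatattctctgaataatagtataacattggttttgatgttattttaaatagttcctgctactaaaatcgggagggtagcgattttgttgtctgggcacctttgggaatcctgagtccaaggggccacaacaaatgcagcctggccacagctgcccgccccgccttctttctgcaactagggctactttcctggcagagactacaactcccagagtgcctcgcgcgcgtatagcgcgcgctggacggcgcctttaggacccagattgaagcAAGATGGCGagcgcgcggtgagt
Mrps11, chr7:78782881-78783180, plus strand: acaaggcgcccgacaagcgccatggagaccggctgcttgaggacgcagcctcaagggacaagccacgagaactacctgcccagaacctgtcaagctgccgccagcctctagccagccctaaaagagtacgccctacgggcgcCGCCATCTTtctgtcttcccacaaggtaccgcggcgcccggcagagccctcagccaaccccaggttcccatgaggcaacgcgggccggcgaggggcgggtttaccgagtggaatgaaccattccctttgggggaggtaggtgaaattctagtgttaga

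The 5 motifs ETS, NRF1, YY1, E-box and TATA were searched on both strands of each window. The ETS motif CCGGAAG, bound by the GABP (NRF2) family, was in 25 of the 69 windows (36.2%), against 19.2% of tested genes and 9.12% of all promoters. The NRF1 motif (GCGC, any 2 bases, GCGC) was in 14 (20.3%, against 14% and 6.43%). The YY1 motif AAGATGGCG was in 8 (11.6%, against 3.38% and 1.49%). The E-box CACGTG and the TATA motif TATAAA were in 5 and 4 windows (7.25% and 5.8%), against 10.4% and 7.12% of tested genes. Median GC content was 58.3% in the members' windows, 60.7% in those of tested genes and 52.7% in all.

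Each motif was found in windows of both subunits, and among called and uncalled genes. The ETS motif was in 14 of 43 large-subunit and 11 of 26 small-subunit windows, the NRF1 motif in 11 of 43 and 3 of 26, and the YY1 motif in 4 of each. Among genes called higher in replicate 1 the ETS, NRF1 and YY1 motifs were in 8, 2 and 2 of 20 windows, and among those not called in 17, 12 and 6 of 49. A match says only that these letters are in the window, and no test was made.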

How the data were processed

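Per the labels, 4 libraries of 1 group were sequenced. The authors deposited gene tables with expected counts and TPM, transcript tables that add a percent of each gene's TPM per isoform, and target tables with estimated counts and TPM, per the file headers. The deposited text names mm10 and GENCODE M21. Aligner, quantifiers, versions and strand: not given in the sources used here. Features that name no gene (26345) held 0.0267% to 0.407% of counts and were left out.

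Expected counts were rounded. The 14041 genes whose counts averaged 10 or more were tested, each replicate against the other 3, with TMM and edgeR 4.0.16 (quasi-likelihood, Benjamini-Hochberg, R 4.3.3). The alternatives were DESeq2 1.42.0 and its size factors, no filter, target-table counts and leaving out replicates. Spread used log2 CPM with a prior count of 2, and levels log2(TPM + 1). Floors, 3 counts of a total, are 0.0626 to 0.0997 CPM and reflect counting error alone. Without molecular identifiers PCR copies count as reads, so the spread of a count can exceed counting error. The part of such copies in the variation beyond counting was not tested. Steps were tested on simulated data. The members and lists were chosen with earlier results of these data known, and the respiratory chain list by symbol pattern. Members named are the highest and lowest in level, fold and SD, those with set roles, and those of a described group. Mtrfr of the translation factors was not matched. Depth per library, in counts, was 30088678, 47961117, 40282297 and 45771235.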

Additional observations from a re-analysis of the deposited data

Results flagged for a closer look

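Mrps28 was the gene, of 78 examined, whose TPM in 1 of the 4 libraries lay far from the other 3. Replicate 1 had 11.2 TPM, against 3.39, 3.77 and 4.02 TPM in replicates 2, 3 and 4. The gap between replicate 1 and its nearest neighbour was 0.919 of the whole range, above Dixon's limit for 4 samples. Chance passes this limit in about 1 of 20 groups, and 1 of 78 passed, a smaller share. How many of all genes tested pass it, in TPM or in log2 CPM, was not counted. No count of passing genes can therefore be read as particular to the 78. On the log2 CPM scale 8 genes passed, namely Mrpl49, Mrpl38, Mrps18b, Mrps5, Mrpl17, Mrps17 and Mrpl50 with replicate 1 farthest out and Mrps30 with replicate 4, and Mrps28 was not among them.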

How the results depend on the processing

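No paired analysis was possible because all 4 libraries belong to 1 group. The share of all genes called was determined only for edgeR's main fit and for DESeq2. In the other settings below, whether the 78 genes exceeded that share is therefore not known. The count of genes called higher in replicate 1, 25 of 78, was 19 with DESeq2 size factors, 17 with DESeq2, 23 with no filter on low counts, 26 with target-table counts and 15 to 23 with 1 of the other replicates left out. Of the 42 genes that overlap no gene on the opposite strand, an alternative chosen after seeing the data, 12 were called. The number varying beyond counting, 66, was 41 without replicate 1 and up to 64 without another. The median SD, 0.192 on log2 CPM, was 0.376 on log2(TPM + 1) and 0.104 to 0.233 with 1 replicate left out. The difference between subunits, 0.29, was 0.16 with a pseudocount of 10 and 0.14 with means of log2(TPM + 1) over genes. It was 0.12 on log2(CPM + 1) and 0.17 in target-table TPM. The difference stayed above 0 in these alternatives, and the cause of the change was not tested. Mean unlogged TPM per gene was not among them, and it was higher for the large subunit only in replicate 1. The log2 fold of Mrps18a in replicate 1, 0.06, was -0.03 without replicate 4 and 0.11 without replicate 2, and it was not called in any of these. A single library against 3 leaves few degrees of freedom, and the lowest counts near 153 limit the precision of genes such as Mrps28.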
